A study of Mus musculus with 2 samples.

Results

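Oxidative phosphorylation genes were followed in 2 spleen single-cell RNA libraries. They were taken as every gene whose symbol starts with Nduf, Uqcr, Atp5, Cox4, Cox5, Cox6, Cox7, mt-Nd, mt-Co, mt-Cyt or mt-Atp, which gave 100 of 32285 genes. Of these, 87 are encoded in the nucleus and 13 in the mitochondrial genome. By role, 37 are counted as nuclear complex I subunits and 8 are complex I assembly factors (Ndufaf genes). There are 8 nuclear complex III genes, 17 nuclear cytochrome c oxidase (complex IV) genes and 17 nuclear ATP synthase genes. Among the 37, Ndufb1-ps is annotated as a long non-coding RNA and was kept in the complex I sums. The mitochondrial genes comprise 7 of complex I, 1 of complex III, 3 of complex IV and 2 of ATP synthase. All recipients were wild-type C57BL/6 mice, in a study that asks about the Th17 pathway in the making of antibodies to HLA. The mice of the ALLO library carried tail skin of donors with a human HLA-A2 transgene (strain C57BL/6-Tg(HLAA2.1)1Enge/J), grafted at weeks 0 and 5. The SYN library came from mice given wild-type C57BL/6 skin at the same weeks. Anaesthesia and surgery were common to both groups. Spleens were taken 4 weeks after the second graft, and the dissociated cells were frozen, thawed and depleted of dead cells before 10x Chromium 5′ v2 libraries were made. Each group is 1 library, and the labels do not say how many mice it holds, nor their age or sex. A difference between ALLO and SYN below is therefore one between 2 libraries, and no test between the grafts was possible.

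Oxidative phosphorylation makes most of the ATP of a resting cell. Complexes I, III and IV of the inner mitochondrial membrane pass electrons to oxygen and pump protons, and ATP synthase uses the returning protons to make ATP. Most subunits are transcribed in the nucleus, translated in the cytosol and imported, while a small core is transcribed within the mitochondrion as long precursors that are processed into single messages. Resting lymphocytes rely on this pathway, and lymphocytes that divide build new mitochondria while also using glycolysis.

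The libraries held 11185 ALLO and 17777 SYN barcodes with 39476214 and 45435231 unique molecular identifiers (UMIs, one per captured RNA molecule). Barcodes with at least 1000 UMIs were kept, which left 9926 ALLO cells and 11267 SYN cells. Below the minimum lay 11.3% of ALLO and 36.6% of SYN barcodes. The libraries shared 264 barcode sequences, 161 of them among kept cells, and leaving these out moved no ALLO to SYN ratio of a share past its counting interval. Cells were put in 7 classes by UMIs of a few genes, and a cell may be in more than 1. There were 7161 ALLO and 7258 SYN B cells (Cd79a and Cd79b together at least 2, no Cd3e). There were 586 and 910 CD4 T cells, 577 and 601 CD8 T cells and 98 and 109 Foxp3 T cells, all with Cd3e and without Cd79a plus a UMI of Cd4, Cd8b1 or Foxp3. There were 241 and 370 natural killer (NK) cells (Ncr1 or Klrb1c, no Cd3e), 57 and 70 plasma cells (Jchain at least 3) and 173 and 151 dividing cells (Mki67 and Top2a together at least 2). Kept cells in no class numbered 1357 and 2193. Each class was high in its own markers, but NK cells also held B cell markers at 8333 and 7244 CPM (UMIs of a gene scaled to a fixed total of the class, summed over 8 genes), and 62 and 118 of them met the B rule too. Plasma cells held the B cell markers at 20324 and 14541 CPM, and 39 of 57 ALLO and 37 of 70 SYN plasma cells met the B rule.

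The main pattern was one of cell type in UMIs pooled over cells of all depths, and it was present in both libraries. T and NK cells gave a larger pooled share than B cells to nuclear-encoded oxidative phosphorylation genes and a smaller pooled share to mitochondrially encoded ones. Dividing cells gave a still larger pooled share to the nuclear genes. None of the 3 statements held at every depth for all the classes it names, as given with the shares by depth below. Over all kept cells the nuclear members held 1.62% of ALLO and 1.60% of SYN UMIs, and the mitochondrial members 2.09% and 1.95%. UMIs were found for 84 of the 87 nuclear members, 83 of which reached 20 UMIs over both libraries, and for all 13 mitochondrial members. Values in parentheses are exact 95% intervals that cover counting error only. They hold nothing of the spread between mice or between libraries, so an interval that leaves out 1 does not show a difference between the grafts.

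**Figure D1:**
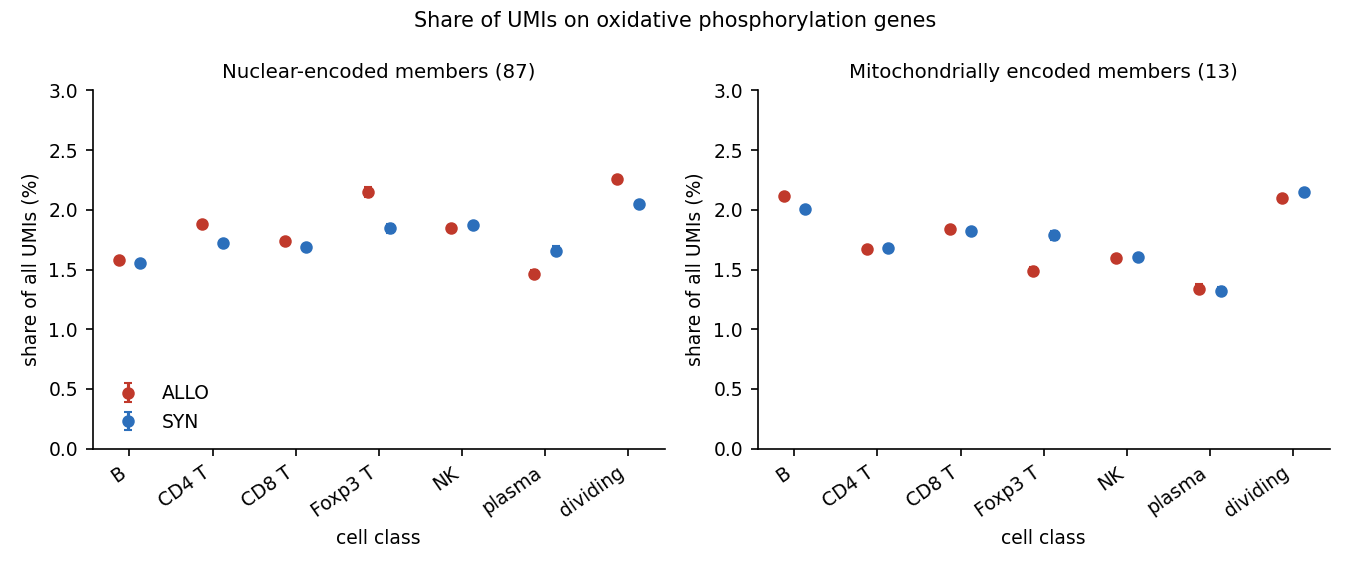
Share of all UMIs (%, y axis) on the 87 nuclear and 13 mitochondrial members in each cell class (x axis), ALLO in red and SYN in blue, with exact 95% Poisson intervals. B cells have the lowest nuclear shares (1.58% and 1.56%) apart from ALLO plasma cells (1.46%), and the T, NK and plasma classes lie below B cells in the mitochondrial share.

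B cells set the reference. Their nuclear share was 1.58% in ALLO and 1.56% in SYN, and their mitochondrial share was 2.11% and 2.01%. Among single ALLO B cells the quartiles of the nuclear share were 1.29% and 1.73%, and among SYN B cells 1.28% and 1.70%. The quartiles of the mitochondrial share were 1.61% and 2.46% in ALLO and 1.51% and 2.37% in SYN. The quartiles over single cells of 1 library thus lay farther apart than the libraries did. These quartiles include the counting error of single cells (medians of 3185 UMIs in ALLO and 2971 in SYN), which was not separated.

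The members with the most UMIs were measured closely in both libraries. In B cells of ALLO and SYN, mt-Co1, mt-Co2 and mt-Co3 of complex IV were at 4326 and 4197 CPM, 2763 and 2609 CPM and 2587 and 2599 CPM. mt-Atp6 and mt-Atp8 of ATP synthase were at 3166 and 2962 CPM and 158 and 157 CPM, and mt-Cytb of complex III at 2529 and 2345 CPM. These values pair ALLO with SYN and are not compared between genes, whose lengths differ. Of the complex I genes, mt-Nd1 was at 1153 and 1091 CPM, mt-Nd2 at 924 and 893 CPM, mt-Nd3 at 216 and 206 CPM, mt-Nd4 at 868 and 838 CPM, mt-Nd4l at 1365 and 1217 CPM and mt-Nd5 at 1013 and 928 CPM. Among the 12 nuclear members with the most UMIs were Cox4i1, a structural subunit of complex IV, at 630.2 and 614 CPM, and Atp5e, a subunit of the ATP synthase rotor, at 786 and 764 CPM. Cox6c and Cox7c of complex IV were at 381 and 362 CPM and 348 and 343 CPM, Atp5d at 366 and 359.7 CPM and Atp5b at 417 and 430.1 CPM. Each pair of B cell levels lay close together.

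NK cells stood farthest below B cells in the mitochondrial share among the T and NK classes, in both libraries. Without cells that also met the B rule, 179 ALLO and 252 SYN NK cells had a nuclear share of 1.95% and 1.961%, which is 1.23 (1.21 to 1.26) and 1.26 (1.24 to 1.28) times that of the B cells of their library. Their mitochondrial share was 1.47% and 1.41%, or 0.695 (0.680 to 0.710) and 0.701 (0.687 to 0.714) times that of B cells. All 13 mitochondrial members were lower than in B cells in both libraries. mt-Nd5, a proton-pumping core subunit of complex I, stood at 0.594 and 0.653 times B cells. mt-Co1, the catalytic subunit of complex IV, stood at 0.704 and 0.741 times, and mt-Cytb, the cytochrome b of complex III, at 0.680 and 0.618 times. Summed by complex, the mitochondrial genes lay between 0.618 and 0.728 times B cells, with all 4 sums lower in both libraries.

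Nuclear complex IV genes stood highest over B cells in NK cells, at 1.32 (1.27 to 1.37) times in ALLO and 1.40 (1.36 to 1.45) times in SYN. Nuclear complex I genes stood at 1.24 and 1.252 times, ATP synthase genes at 1.22 and 1.22 times and complex III genes at 1.09 and 1.16 times. A gene was counted as measured where it had at least 20 UMIs. Of 77 measured nuclear members, 9 were at least 1.5-fold higher than in B cells in both libraries and 1 at least 1.5-fold lower, and of the mitochondrial members 1, mt-Nd5, was that much lower. Among all 6633 measured genes 19.6% were that much higher and 11.8% that much lower, so the nuclear members were not past this size more often than genes at large. Their median log2 ratio was 0.24 in ALLO and 0.33 in SYN, beside 0.21 and 0.16 over all genes.

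The 9 higher nuclear members were Atp5h, Ndufaf7, Ndufv3, Ndufa4, Ndufa1, Ndufa13, Ndufb7, Uqcrb and Cox5b. Atp5h, a subunit of the ATP synthase stalk (chr11:115415689-115419962, minus strand), was at 688 and 689 CPM in ALLO and SYN NK cells against 364 and 362 CPM in B cells, ratios of 1.89 (1.70 to 2.09) and 1.90 (1.74 to 2.08). Ndufa4, a small subunit first assigned to complex I and now placed in complex IV, was at 488 and 527 CPM against 293 and 294 CPM. For both genes the NK levels of the libraries lay closer to each other than to B cells. Ndufaf7, a methyltransferase that acts in complex I assembly, had ratios of 1.86 (1.14 to 2.87) and 2.17 (1.42 to 3.19) from 21 and 28 UMIs. Ndufaf4, another assembly factor, was the lower one, at 0.632 (0.325 to 1.11) and 0.505 (0.275 to 0.851) times B cells from 12 and 14 UMIs. The ratios of the assembly factors rest on few UMIs and have wide intervals. Below B cells in both libraries, but not by 1.5-fold in both, were Ndufa12 (0.611 and 0.844), Atp5g2 (0.868 and 0.865) and Ndufab1, the acyl carrier protein of complex I (0.691 and 0.883).

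Ndufv3 was at least 1.5-fold above B cells in CD4 T, CD8 T, Foxp3 T and NK cells of both libraries. It encodes an accessory subunit of the NADH-binding arm of complex I (chr17:31520115-31531331, plus strand). Its level in B cells was 117 and 117 CPM in ALLO and SYN. It was 217 and 190.4 CPM in CD4 T cells and 193 and 189 CPM in CD8 T cells. In Foxp3 T cells it was 218 and 188 CPM and in NK cells 229 and 203 CPM, so the T and NK levels lay together above those of B cells. After each cell was thinned to 1000 UMIs, a Ndufv3 UMI was found in 11.02% of ALLO and 11.1% of SYN B cells and in 18.4% and 17.5% of CD4 T cells.

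T cells also lay above B cells in the nuclear share and below them in the mitochondrial share. CD4 T cells gave the nuclear members 1.19 (1.18 to 1.20) times the share of B cells in ALLO and 1.11 (1.10 to 1.12) times in SYN, and the mitochondrial members 0.790 (0.782 to 0.797) and 0.838 (0.831 to 0.845) times. CD8 T cells stood at 1.10 and 1.08 times B cells in the nuclear share and at 0.872 and 0.907 times in the mitochondrial share. Foxp3 T cells, the class that holds regulatory T cells, stood at 1.36 and 1.18 times in the nuclear share and at 0.705 and 0.888 times in the mitochondrial share. In all 3 classes each of the 13 mitochondrial members lay below B cells in both libraries.

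The mitochondrial genes for complex I lay lower than those for ATP synthase in CD4 T cells. The former stood at 0.709 (0.695 to 0.723) times B cells in ALLO and 0.761 (0.749 to 0.774) times in SYN, the latter at 0.856 (0.836 to 0.876) and 0.927 (0.909 to 0.946) times. Among nuclear members, 1 of 81 in CD4 T cells (Ndufv3), 2 of 81 in CD8 T cells (Ndufv3 and Ndufa10) and 3 of 76 in Foxp3 T cells (Ndufv3, Atp5j2 and Atp5md) were at least 1.5-fold above B cells in both libraries. No measured member of either genome was that far below in these classes. Over all measured genes the shares that much higher were 13%, 11.5% and 13.4%, and those that much lower 14.5%, 19.2% and 11.8%. Although few nuclear members passed 1.5-fold, most lay above B cells in CD4 T cells: 71 of 81 nuclear members in ALLO and 55 in SYN CD4 T cells did so. Their median log2 ratio was 0.23 and 0.11, beside 0.01 and -0.08 over all genes.

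Cox7a2l, counted here among the complex IV genes, was higher than in B cells in T cells and lower in dividing cells. It was at 252 and 268 CPM in ALLO and SYN B cells. It was at 364 and 405 CPM in CD4 T cells and 359 and 375 CPM in CD8 T cells. In dividing cells outside the B class it was at 217 and 206 CPM, below B cells in both libraries. Ndufa10, a complex I accessory subunit, was at 111 and 103 CPM in CD8 T cells against 65.0 and 66.5 CPM in B cells, and Atp5mpl, a small ATP synthase subunit, at 339.8 and 342 CPM against 242 and 243 CPM. Ndufs8, an iron-sulfur core subunit of complex I, was lower, at 98.3 and 84.9 CPM in CD8 T cells against 128 and 125 CPM. Single complex I subunits thus lay on either side of B cells in CD8 T cells, in both libraries alike.

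**Figure D2:**
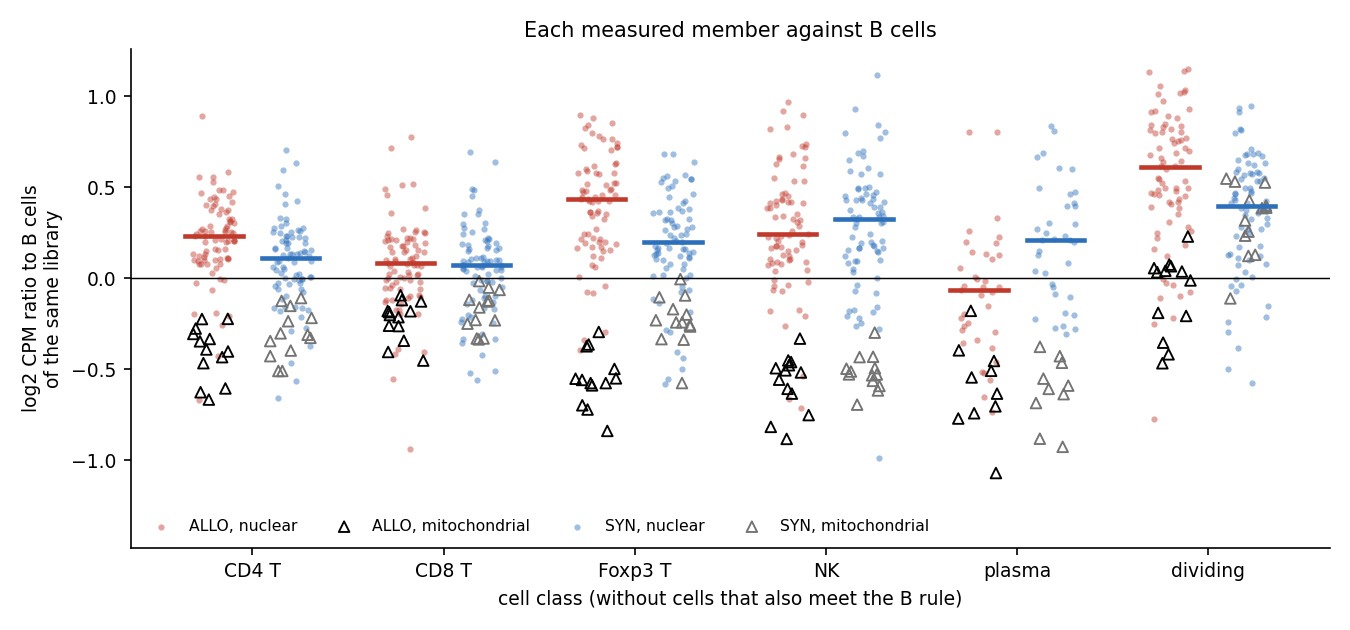
Log2 ratio of CPM to B cells of the same library (y axis) for each measured member in 6 classes (x axis), with nuclear and mitochondrial members marked apart in each library. Mitochondrial members lie below 0 in both libraries in CD4 T, CD8 T, Foxp3 T, NK and plasma cells, and the nuclear medians lie highest in dividing cells, at 0.61 in ALLO and 0.40 in SYN.

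Pooled over all depths, dividing cells had the largest nuclear share of any class in each library, 2.26% in ALLO and 2.05% in SYN. Among cells of 2000 to 6000 UMIs this was not so: dividing cells had 1.62% and 1.47%, below CD4 T cells (1.71% and 1.69%) and NK cells (1.85% and 1.91%), beside 1.53% and 1.51% in B cells. As the mean over cells the dividing class had 1.86% and 1.72%, below Foxp3 T cells (1.88% and 1.79%) in both libraries. In SYN it was also below NK cells (1.81%). The comparisons with B cells that follow are of pooled UMIs. The 87 ALLO and 56 SYN dividing cells outside the B class, which mix lineages as given below, stood at 1.52 (1.501 to 1.55) and 1.31 (1.28 to 1.34) times B cells. Nuclear ATP synthase genes stood at 1.65 and 1.37 times and complex IV genes at 1.63 and 1.43 times. Complex I subunits stood at 1.40 and 1.21 times and complex III genes at 1.29 and 1.19 times, so ATP synthase and complex IV led in both libraries. The assembly factors of complex I were near B cells, at 0.996 (0.848 to 1.16) and 1.10 (0.876 to 1.35) times. The mitochondrial share differed between the libraries: it stood at 0.994 (0.979 to 1.01) times B cells in ALLO and 1.29 (1.27 to 1.32) times in SYN. Of these cells outside the B class, 48 ALLO and 26 SYN were T cells, and 39 and 30 were neither B nor T cells. Mitochondrial shares were 1.60% and 2.14% in the T part, and 3.13% and 3.08% in the other. Both parts lay above B cells in the pooled nuclear share. In the part that was neither, the median nuclear share over cells was 1.65% and 1.14%, against 1.499% and 1.48% in B cells. How far this mix moved the ratios to B cells was not tested. More than 10% of UMIs fell on mitochondrial members in 20 of 173 ALLO and 12 of 151 SYN dividing cells, against 41 of 7161 and 20 of 7258 B cells. Neutrophil markers (S100a8, S100a9 and Csf3r, none at 0) summed to 4685 CPM in ALLO and 165 CPM in SYN dividing cells. Without cells holding at least 5 UMIs of S100a8 and S100a9 the ratio of ALLO to SYN nuclear shares in dividing cells was 1.11, against 1.10 with them.

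Of 76 nuclear members measured in dividing cells outside the B class, 18 were at least 1.5-fold above B cells in both libraries and none that far below. Among all 5260 measured genes 17.9% were that much higher and 12.9% that much lower. The higher members were Ndufc2, Ndufb7, Ndufa8, Ndufb9 and Ndufs6 of complex I, Uqcr10 and Uqcrq of complex III, Cox5b, Cox5a, Cox6b1, Cox6a1 and Ndufa4 of complex IV, and Atp5g3, Atp5j, Atp5c1, Atp5md, Atp5o and Atp5k of ATP synthase. They thus came from all 4 complexes. Ndufc2, a membrane-arm subunit of complex I (chr7:97400003-97407802, plus strand), was at 244 and 224 CPM against 118 and 117 CPM in B cells, ratios of 2.08 (1.78 to 2.40) and 1.92 (1.53 to 2.39). Cox5b, a zinc-binding subunit of complex IV (chr1:36691449-36693681, plus strand), was at 749 and 611 CPM against 342 and 320.1 CPM, ratios of 2.19 (2.01 to 2.38) and 1.91 (1.67 to 2.18). Uqcr10, a small subunit of complex III, was at 309 and 308 CPM against 172 and 164 CPM. Some members went against the rest: Ndufa6, a complex I accessory subunit, stood at 0.841 and 0.708, and Uqcrh, the hinge subunit of complex III, at 0.929 and 0.900 times B cells.

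The stretches before the start sites of 6 of these members are printed to show what such promoters hold. RefSeq tables on build GRCm38.p6 gave a promoter (250 bases before to 50 after the start) for 70 of the 87 nuclear members. Motifs were searched on both strands: the core of the NRF1 site (GCGCATGC), an ETS core as bound by GABP (CCGGAAG), the YY1 core (AAGATGGC), an ERR half-site (AAGGTCA) and the SP1 core (GGGCGG). These factors are known regulators of nuclear genes for mitochondrial proteins. The NRF1 letters were in 15.7% of member promoters and 2.80% of the 27025 promoters of all genes, and the ETS letters in 21.4% and 9.12%. The YY1 letters were in 12.9% and 2.88%, the ERR letters in 10% and 4.66% and the SP1 letters in 45.7% and 35.9%. Matches of the NRF1 letters on the 2 strands can overlap. The RefSeq starts differ from the gene positions given elsewhere in this report. Each of the 6 stretches runs into its gene by those positions, as for Cox5b, which begins there at 36691449. Some printed bases and matches thus lie within the annotated gene. Each line gives the 250 bases before the RefSeq start, 5′ to 3′ on the strand of the gene, with matches to the NRF1, ETS and YY1 letters in capitals.
Cox6a1 (chr5:115348959-115349208, strand -): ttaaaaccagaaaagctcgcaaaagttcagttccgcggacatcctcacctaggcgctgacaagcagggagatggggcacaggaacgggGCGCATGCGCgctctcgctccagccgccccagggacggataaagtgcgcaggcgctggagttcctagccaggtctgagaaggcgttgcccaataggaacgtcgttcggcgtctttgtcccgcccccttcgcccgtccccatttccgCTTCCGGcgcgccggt
Atp5k (chr5:108434400-108434649, strand -): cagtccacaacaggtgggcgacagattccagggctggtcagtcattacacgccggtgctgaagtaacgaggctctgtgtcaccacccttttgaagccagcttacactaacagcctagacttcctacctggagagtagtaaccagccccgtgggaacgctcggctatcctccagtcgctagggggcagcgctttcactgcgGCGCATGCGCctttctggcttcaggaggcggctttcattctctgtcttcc
Ndufa8 (chr2:36049339-36049588, strand -): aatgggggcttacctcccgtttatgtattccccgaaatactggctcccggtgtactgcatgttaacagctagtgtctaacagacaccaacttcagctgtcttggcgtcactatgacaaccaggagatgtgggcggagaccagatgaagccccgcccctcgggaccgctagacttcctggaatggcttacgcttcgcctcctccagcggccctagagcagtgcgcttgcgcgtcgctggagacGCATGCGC
Cox6b1 (chr7:30626115-30626364, strand -): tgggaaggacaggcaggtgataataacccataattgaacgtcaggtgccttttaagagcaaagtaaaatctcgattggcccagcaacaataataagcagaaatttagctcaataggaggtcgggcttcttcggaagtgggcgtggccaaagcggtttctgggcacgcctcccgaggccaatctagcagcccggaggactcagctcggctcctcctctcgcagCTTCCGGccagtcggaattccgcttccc
Ndufb7 (chr8:83566508-83566757, strand +): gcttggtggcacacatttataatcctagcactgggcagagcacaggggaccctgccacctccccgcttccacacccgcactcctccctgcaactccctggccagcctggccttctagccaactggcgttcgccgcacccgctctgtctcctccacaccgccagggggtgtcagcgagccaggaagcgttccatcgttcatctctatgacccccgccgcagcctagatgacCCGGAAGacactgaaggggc
Cox5b (chr1:36691237-36691486, strand +): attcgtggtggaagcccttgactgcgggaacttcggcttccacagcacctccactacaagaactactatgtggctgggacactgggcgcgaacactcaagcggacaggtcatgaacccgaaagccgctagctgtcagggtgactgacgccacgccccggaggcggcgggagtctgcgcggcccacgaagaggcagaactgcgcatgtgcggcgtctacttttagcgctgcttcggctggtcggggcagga
The first 5 are those of the 18 higher members with a match among the printed bases, and Cox5b, which with Ndufc2 stood farthest above B cells by the smaller of the ratios of the 2 libraries, holds none of these letters there. Members with the NRF1 letters had a median log2 ratio of dividing cells to B cells of 0.52 in ALLO and 0.37 in SYN (10 members), and those without 0.66 and 0.38 (53 members). With the ETS letters the medians were 0.62 and 0.40, and without them 0.62 and 0.38. With the YY1 letters they were 0.74 and 0.36 (9 members), and without them 0.57 and 0.41, so the libraries differed in direction. Of the 18 higher members, Ndufb9 and Uqcrq had no promoter to search. The NRF1, ETS and YY1 letters were thus more frequent among members than among all promoters. A match is a description of the letters, not a bound site.

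**Figure D3:**
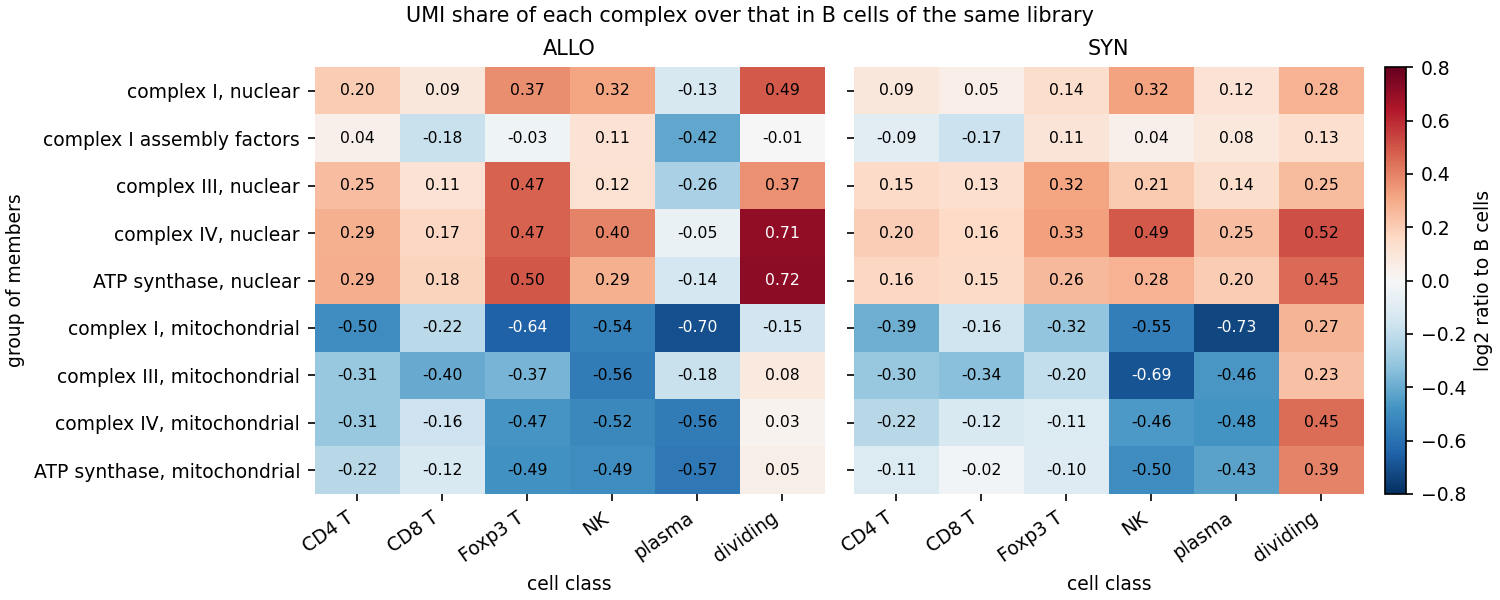
Ratio of the UMI share of each group of members to that in B cells of the same library, on a log2 colour scale, for each cell class without cells that also met the B rule. Nuclear ATP synthase and complex IV stand highest in dividing cells (1.65 and 1.63 in ALLO, 1.37 and 1.43 in SYN), and the mitochondrial groups stand below B cells in the T and NK classes.

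CD4 T cells of the ALLO library had a larger nuclear share than those of SYN. It was 1.88% (1.87 to 1.90) in ALLO and 1.72% (1.71 to 1.74) in SYN, which gives a ratio of 1.09 (1.08 to 1.11), while the mitochondrial share was 1.67% and 1.68%, a ratio of 0.991 (0.980 to 1.00). The excess was alike in complex I (1.09), complex III (1.08), complex IV (1.09) and ATP synthase genes (1.11). Of 81 measured nuclear members 69 were higher in ALLO, with a median log2 ratio of 0.15 beside 0.02 over all genes. None was 1.5-fold apart, while 8.36% of all 9892 measured genes were that much higher and 4.43% that much lower in ALLO. The difference was thus small and spread over most members.

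Ndufc2 led the members in CD4 T cells, at 145 and 105 CPM in ALLO and SYN, a ratio of 1.39 (1.21 to 1.60). Uqcr11, a small subunit of complex III, was at 161 and 125 CPM, a ratio of 1.29 (1.13 to 1.47). The next were genes of ATP synthase: Atp5g2 and Atp5g3, which encode the same ring subunit, at 703 and 586 CPM and at 554 and 471 CPM, and Atp5l, a subunit of the membrane part, at 489 and 404 CPM. These 5 had the highest ratios by the interval bound nearest 1. Against these, Cox7a2l was lower in ALLO, at 364 and 405 CPM, a ratio of 0.897 (0.829 to 0.972). Ndufaf4 (0.854), Ndufa10 (0.875), Ndufaf7 (0.913) and Ndufa6 (0.947), of complex I and its assembly, also lay below 1.

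Dividing cells moved with this difference. They were 28 of 586 ALLO and 12 of 910 SYN CD4 T cells and held 13.2% and 2.22% of the UMIs of the class, with division markers at 554 and 174 CPM summed over 6 genes. Dividing CD4 T cells had a nuclear share of 2.70% (2.65 to 2.75) in ALLO and 2.14% (2.04 to 2.24) in SYN, against 1.76% and 1.71% in the other CD4 T cells. Without dividing cells the ratio of ALLO to SYN was 1.03 (1.01 to 1.04), and 56 of 81 nuclear members were higher in ALLO with a median log2 ratio of 0.05. The larger part of the difference was thus absent once these cells were left out. Cox5b went from 1.17 to 0.999, Atp5g3 from 1.18 to 1.03 and Ndufc2 from 1.39 to 1.24, and Atp5l from 1.21 to 1.17 (1.08 to 1.27). The median over single CD4 T cells, which weighs each cell alike, was 1.70% in ALLO and 1.67% in SYN. Dividing CD4 T cells were also deeper than the others, with medians of 9925 and 7121 UMIs against 4204 and 4122, and the part of depth in the difference was not tested.

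Foxp3 T cells also had a larger nuclear share in ALLO, on fewer cells. Of these cells 48 in ALLO and 48 in SYN were CD4 T cells as well, so this is not a separate set of cells. The nuclear share of the Foxp3 T class was 2.15% (2.11 to 2.19) in 98 ALLO cells and 1.85% (1.81 to 1.89) in 109 SYN cells, a ratio of 1.16 (1.13 to 1.20). Their mitochondrial share went the other way, at 1.49% and 1.79%, a ratio of 0.834 (0.808 to 0.861), with all 13 mitochondrial members lower in ALLO, from 0.764 for mt-Co3 to 0.968 for mt-Atp8. Of 76 nuclear members 9 were at least 1.5-fold higher in ALLO and none that much lower, while 12.9% of all 5903 measured genes were that much higher and 12.9% that much lower. The split was 2 higher and 5 lower among cells of 2000 to 6000 UMIs, and 5 and 1 without the deepest cell of each library. The 9 higher members were Ndufa9, Ndufs6, Ndufb2, Ndufb10, Ndufc2, Ndufa11, Atp5k, Atp5o and Uqcr11. Atp5o, which holds the stalk of ATP synthase to its head, was at 334 and 220.2 CPM, a ratio of 1.52 (1.18 to 1.97). Ndufs6, a zinc-binding subunit of complex I, was at 143 and 82.8 CPM from 69 and 38 UMIs. Uqcrc2, a core subunit of complex III, was the lowest at 0.682 (0.461 to 1.00).

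Dividing cells were 9 ALLO and 5 SYN Foxp3 T cells and held 30.3% and 8.13% of the UMIs of the class, and 1 ALLO cell held 12.02% of its nuclear member UMIs. Without dividing cells the nuclear share was 1.85% in ALLO and 1.84% in SYN, which gives a ratio of 1.00 (0.968 to 1.04), with 41 of 76 members higher in ALLO. No nuclear member was then 1.5-fold higher and 2, Ndufs3 and Uqcrc2, were that much lower, at 10.2% and 12.9% of all genes. The nuclear difference was thus no longer present. The mitochondrial ratio was 0.862 (0.832 to 0.894) without dividing cells, again with all 13 members lower in ALLO. The median over these cells was 1.51% in ALLO and 1.54% in SYN. Over the whole class, dividing cells included, the median over cells was 1.52% in ALLO and 1.51% in SYN, and the ratio of the means over cells was 0.825. In the whole class the median cell thus did not show the difference that the pooled UMIs and the mean did.

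CD8 T cells differed less. Their nuclear share was 1.74% and 1.69%, a ratio of 1.03 (1.02 to 1.04), and the ratio was 0.998 (0.986 to 1.01) without dividing cells. Their mitochondrial share was 1.84% and 1.82%. Of 81 nuclear members 57 were higher in ALLO, and 39 without dividing cells. The assembly factor Ndufaf6 was at least 1.5-fold lower in ALLO, from 17 and 27 UMIs, and none was that much higher, beside 5.74% and 4.57% of all genes. Ndufc2 was again the highest by its interval, at 130.0 and 104 CPM, followed by Atp5b, the catalytic subunit of ATP synthase, at 503 and 438 CPM, a ratio of 1.15 (1.07 to 1.23). No nuclear member had an interval wholly below 1. Lowest by ratio, among members with at least 50 UMIs, were the assembly factors Ndufaf4 (0.836), Ndufaf5 (0.841) and Ndufaf2 (0.903). With them were the subunits Ndufc1 (0.855) and Ndufb3 (0.887), all of complex I.

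Dividing T cells themselves differed between the libraries, and dividing B cells did so by less. Over all cells with Cd3e and without Cd79a, 48 ALLO dividing cells had a nuclear share of 2.58% (2.53 to 2.62) and 26 SYN dividing cells 2.08% (2.02 to 2.15), which is 1.4996 (1.47 to 1.53) and 1.23 (1.19 to 1.27) times the other T cells of their library. Their mitochondrial shares were 1.60% and 2.14%, or 0.889 and 1.21 times the other T cells. Dividing B cells stood at 1.36 (1.34 to 1.38) and 1.33 (1.31 to 1.35) times other B cells in the nuclear share and at 0.991 and 0.961 times in the mitochondrial share. The pooled nuclear share was thus larger in dividing than in other cells of both lineages and libraries. Within Foxp3 T cells of SYN it was not larger beyond counting error, at 1.02 (0.941 to 1.10) times. Dividing B cells were also deeper, with medians of 7221 and 5807 UMIs against 3175 and 2965 in other B cells, and the part of depth was not tested. The mitochondrial values of SYN T cells were uneven: dividing CD8 T cells stood at 0.945 (0.900 to 0.991) and dividing CD4 T cells at 1.05 (0.999 to 1.11) times the others, and the medians over dividing and other T cells were 1.69% and 1.66%. In Foxp3 T cells the mitochondrial share of 5 SYN dividing cells was 2.47% (2.31 to 2.64) pooled, while their median was 1.27%, below that of the other SYN Foxp3 T cells (1.54%). Over the whole dividing class the ratio of ALLO to SYN was 1.10 (1.09 to 1.12) for nuclear and 0.975 (0.959 to 0.991) for mitochondrial members. The mitochondrial ratio turned to 1.08 as the mean over cells. Atp5j2, an ATP synthase subunit, was highest in ALLO by its interval, at 532 and 417 CPM. No nuclear member was 1.5-fold higher in ALLO and 1, Ndufaf4, was that much lower (18.0 and 35.3 CPM), beside 7.61% and 10.8% of all genes.

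**Figure D4:**
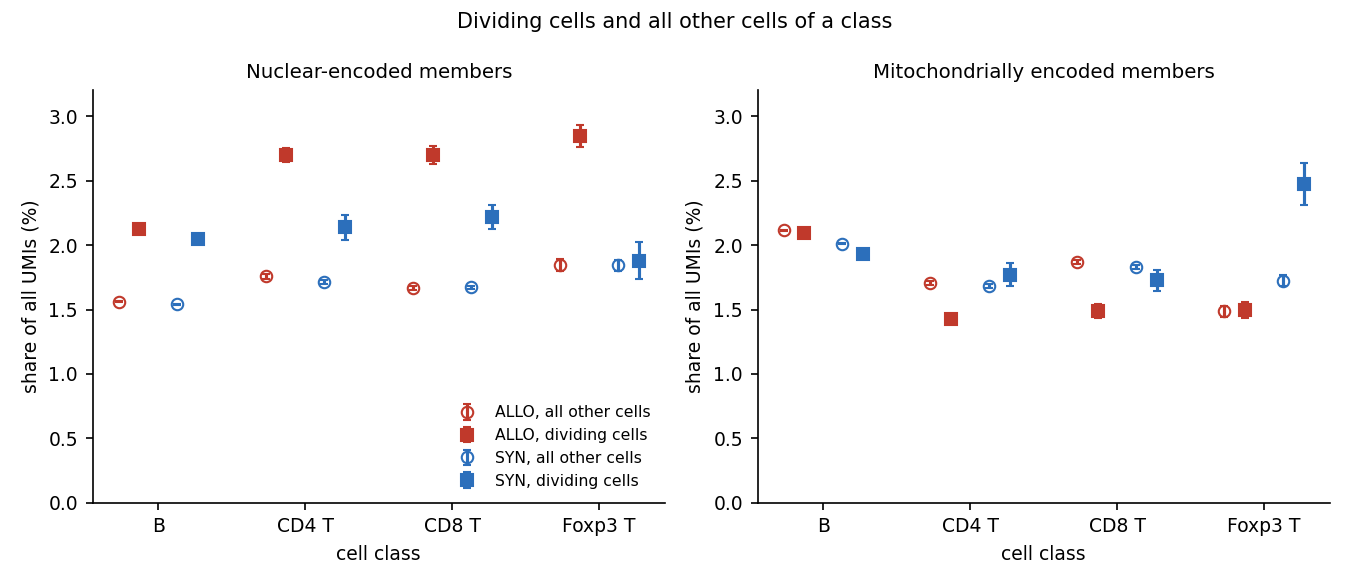
Share of all UMIs (%, y axis) on nuclear and mitochondrial members in dividing and other cells of 4 classes (x axis), ALLO in red and SYN in blue, with exact 95% Poisson intervals. The nuclear shares of the other cells nearly coincide between the libraries (1.76% and 1.71% in CD4 T cells, 1.85% and 1.84% in Foxp3 T cells), and dividing ALLO T cells lie highest, from 2.70% to 2.84%.

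In B cells the difference between the libraries was on the mitochondrial side. The mitochondrial ratio of ALLO to SYN was 1.05 (1.05 to 1.06) and the nuclear ratio 1.01 (1.01 to 1.02). Of the 13 mitochondrial members 12 were higher in ALLO, with mt-Co3 the exception at 0.995, and of 83 nuclear members 44. No member was 1.5-fold apart, beside 2.91% higher and 5.35% lower among all 12560 measured genes. The median log2 ratio was 0.08 for mitochondrial and 0.01 for nuclear members, beside -0.07 over all genes. mt-Nd6, the 1 mitochondrial member on the other strand, had the highest ratio, 1.19 (1.11 to 1.28), at 69.9 and 58.6 CPM. Among nuclear members Atp5g2 was highest by its interval, at 642 and 597 CPM, a ratio of 1.07 (1.05 to 1.10). Ndufaf1, an assembly factor, was lowest, at 13.6 and 16.8 CPM, a ratio of 0.808 (0.699 to 0.933). The next highest were Ndufaf7 (1.19), Ndufv2 (1.10), Cox5b (1.07) and Atp5g1 (1.07), and among the next lowest were Cox7a2l (0.941), Ndufa9 (0.910) and Uqcrc1 (0.949). All of these lay close to 1. Neutrophil markers summed to 4.07 CPM in ALLO and 466 CPM in SYN B cells, and without cells holding at least 5 UMIs of S100a8 and S100a9 the mitochondrial ratio was 1.05.

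Both shares moved with the depth of a cell. In B cells of under 2000 UMIs the mitochondrial share was 3.58% in ALLO and 2.62% in SYN, and the nuclear share 1.27% and 1.41%. From 2000 to under 4000 UMIs the mitochondrial shares were 2.07% and 1.959%. At 8000 UMIs or more they were 1.75% and 1.72%, and the nuclear shares 1.91% and 1.89%. The libraries thus lay closer among deeper B cells. From 2000 to under 4000 UMIs NK cells had mitochondrial shares of 1.39% and 1.32% and CD4 T cells 1.79% and 1.72%, below B cells of that depth. CD8 T cells had 1.97% and 1.99% there, which is above B cells in SYN. Below 2000 UMIs the order was not the same: CD4 T cells had 3.33% and 3.57%, CD8 T cells 3.44% and 3.99% and NK cells 2.69% and 2.92%, so in SYN all 3 lay above B cells of that depth. At 8000 UMIs or more SYN NK cells (1.70%) and B cells (1.72%) lay close together. The nuclear order also turned at some depths. Below 2000 UMIs SYN CD4 T cells had 1.36% and SYN CD8 T cells 1.32%, under the 1.41% of SYN B cells. At 8000 UMIs or more SYN CD8 T cells had 1.85%, under the 1.89% of B cells. In T cells the higher nuclear share was thus not present at every depth, nor was the lower mitochondrial share in T and NK cells. The nuclear share of NK cells lay above that of B cells in every bin of both libraries. At 8000 UMIs or more the gap in ALLO was slight, with 1.914% in 14 NK cells and 1.913% in B cells. Among CD4 T cells of 8000 UMIs or more the nuclear shares were 2.73% in ALLO and 2.02% in SYN.

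**Figure D5:**
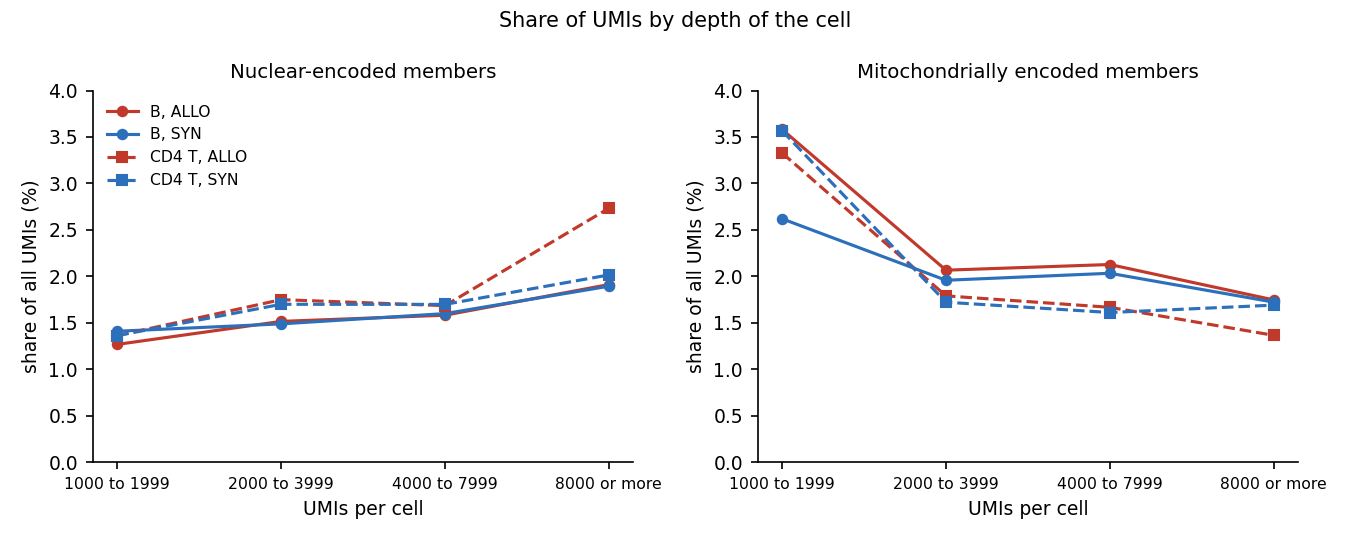
Share of all UMIs (%, y axis) on nuclear and mitochondrial members by UMIs per cell (x axis, 4 bins) in B and CD4 T cells, ALLO in red and SYN in blue. Mitochondrial shares are highest below 2000 UMIs (2.62% to 3.58%), and the nuclear shares of the libraries part in CD4 T cells of 8000 UMIs or more (2.73% and 2.02%).

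Over the whole NK class, cells that also met the B rule included, the libraries did not differ beyond counting error in either sum. The nuclear ratio was 0.988 (0.969 to 1.01) and the mitochondrial ratio 0.996 (0.975 to 1.02). Without the cells that also met the B rule, the mitochondrial share was 1.47% in ALLO and 1.41% in SYN. The nuclear share was then 1.95% and 1.961%, and ratios of ALLO to SYN were not computed for that set. In the whole class no member was 1.5-fold apart, beside 6.16% higher and 8.48% lower among all genes. The members lowest in ALLO were accessory subunits of complex I, Ndufb9 at 0.785 (0.636 to 0.965), Ndufa10 at 0.731 (0.534 to 0.992) and Ndufa12 at 0.709 (0.502 to 0.993). The highest were Ndufs1, an iron-sulfur core subunit of complex I, at 1.31 (0.860 to 2.01), Atp5k at 1.26 (0.995 to 1.58) and Ndufb2 at 1.24 (0.952 to 1.62).

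Plasma cells, which secrete antibody, were few and uneven, and 39 ALLO and 37 SYN cells of the class also met the B rule. Their nuclear share was 1.46% (1.43 to 1.499) in 57 ALLO cells and 1.66% (1.62 to 1.69) in 70 SYN cells, a ratio of 0.882 (0.853 to 0.912), while their mitochondrial share was 1.34% and 1.32%. Of 76 nuclear members 2 were at least 1.5-fold higher in ALLO and 11 at least 1.5-fold lower, beside 7.85% and 26.2% of all genes. Among members with at least 50 UMIs Cox7a2l was also among the highest by ratio (1.32 (0.974 to 1.80)), with an interval that includes 1. Among the lower ones were Ndufc1 (66.3 and 133 CPM), Atp5g1 (180.1 and 285 CPM) and Atp5l (229.9 and 347 CPM), while Ndufa4 was higher (590.0 and 480.1 CPM, ratio 1.23 (1.02 to 1.48)). Genes at large were lower there too, with a median log2 ratio of -0.24 beside -0.18 for the nuclear members. Scaled by that median the nuclear ratio turned to 1.04, and 5 members were then at least 1.5-fold higher and 2 that much lower, so relative to the median gene the members were not lower in ALLO. Immunoglobulin and receptor genes held 30.0% of ALLO and 23.3% of SYN UMIs of the class, and without them in the total the nuclear ratio was 0.967. Against B cells, the 18 ALLO and 33 SYN plasma cells outside the B class had mitochondrial shares of 0.686 (0.642 to 0.731) and 0.692 (0.663 to 0.723) times. All 10 mitochondrial members measured there were lower in both libraries, 4 of them at least 1.5-fold (mt-Nd1, mt-Nd2, mt-Nd4 and mt-Co2), beside 18.6% of all genes. None of 37 nuclear members was 1.5-fold apart from B cells in both, beside 4.42% of all genes that much higher. Ndufv3 (1.74 and 1.38), Uqcrq (1.26 and 1.75) and Cox4i1 (1.15 and 1.33) lay above B cells in both libraries, and Atp5l (0.727 and 0.833) and Atp5mpl (0.845 and 0.827) below.

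Several subunits have tissue-restricted copies, and the spleen cells used the general ones, apart from Cox6a2 in a few cells (25 and 113 UMIs in ALLO and SYN). Cox4i2, Cox7b2 and Ndufa4l2 had 0 UMIs in both libraries, against 25336 and 26762 UMIs for Cox4i1, and a count of 0 allows up to 3 UMIs per library. Cox7a1, the heart and muscle copy of a complex IV subunit, had 7 and 8 UMIs, and Cox6b2, known from testis, 38 and 53 UMIs. The 3 genes of the ATP synthase ring subunit were all expressed over all cells, Atp5g1 at 229.7 and 218 CPM, Atp5g2 at 640.5 and 595 CPM and Atp5g3 at 429 and 423 CPM. Their places in dividing cells outside the B class differed: Atp5g3 stood at 2.21 and 1.76 times B cells, Atp5g2 at 1.38 and 1.254 and Atp5g1 at 1.37 and 0.975.

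Lists of neighbouring pathways, written beside the members, gave mixed values in CD4 T cells of ALLO over SYN. The 4 complex II genes, which the symbol rule leaves out, had 1.14 (1.06 to 1.24) times the SYN share, the 78 mitochondrial ribosomal proteins 1.07 (1.04 to 1.09) times and the glycolysis genes 1.12 (1.08 to 1.15) times. At least 1.5-fold higher were 3 of 78 mitochondrial ribosomal proteins and 2 of 15 measured glycolysis genes, and none of either list that much lower, beside 8.36% and 4.43% of all genes. None of the 4 complex II genes, of 15 tricarboxylic acid cycle genes or of 24 measured import genes was 1.5-fold apart. Their summed shares stood at 1.06 (1.01 to 1.11) times for the cycle and 1.05 (1.02 to 1.09) times for import, and that of pyruvate dehydrogenase and its kinases at 1.02 (0.930 to 1.12) times. The list of mitochondrial gene expression factors went the other way at 0.928 (0.872 to 0.988) times, with 2 of 18 measured genes at least 1.5-fold lower and Tfam, which packages mitochondrial DNA, at 38.6 CPM in ALLO and 53.7 CPM in SYN. Cytosolic ribosomal proteins stood at 0.921 (0.918 to 0.923) times. Atpif1, which inhibits ATP synthase when it runs in reverse, was at 99.8 CPM in ALLO and 61.5 CPM in SYN, a ratio of 1.62 (1.36 to 1.94). Dividing cells were not left out of these values.

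The share of cells with a UMI followed the levels. Thinned to 1000 UMIs per cell, Cox5b was found in 26.8% (25.7 to 27.8) of ALLO and 25.9% (24.9 to 26.9) of SYN B cells and in 40.5% (33.1 to 48.2) and 29.8% (22.6 to 37.8) of dividing cells. Atp5h was found in 29.7% and 28.8% of B cells and in 43.6% and 43.5% of NK cells. Every class here uses these genes, so none served as a background for free RNA.

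Some members share sequence with other annotated genes. In GENCODE vM21 on GRCm38, which gave the gene positions above, 12 of the 87 nuclear members overlap another gene on the same strand, among them Ndufc2, Ndufa13, Atp5o, Atp5b and Cox4i1. How such reads were assigned is not given in the sources used here, and the values of these genes are uncertain to that extent. In the mitochondrial genome mt-Atp8 and mt-Atp6 share 43 bases and mt-Nd4l and mt-Nd4 share 7. The mitochondrial members also come from common precursors, so their like ratios are not independent of each other.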

How the data were processed

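The deposited files hold UMI counts per gene and cell barcode, not normalized, for 1 ALLO and 1 SYN library. The authors made them with Cell Ranger 6.0.2 on build mm10 after FastQC, per the submitters' processing notes. How reads were aligned and assigned is not given in the sources used here. Barcodes under 1000 UMIs were left out, doublets were kept, and classes were set by the marker rules in the report. Shares and CPM were computed from UMIs pooled over the cells of a class. With 1 library per group no test was run: intervals are exact (Poisson for shares, conditional binomial for ratios, Clopper-Pearson for shares of cells) at 95%. Genes with at least 20 UMIs in a comparison counted as measured, and 1.5-fold was the size counted. The floor for a count of 0 was 3 counts.

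The members and lists were chosen with earlier results of these data known. Genes named were all mitochondrial members, the 12 nuclear members with the most UMIs and sets of paralogs. Also named were the highest and lowest per class in ALLO over SYN (at least 50 UMIs) or by the smaller ratio to B cells. Those in ALLO over SYN were ranked by the interval bound nearest 1, and by the ratio where the interval includes 1. Others were named as members past 1.5-fold or chosen after their values were seen. Values of 1 member that the rule names are not reported here. Interval calculations were tested on simulated data. Tools were numpy 2.4.6, scipy 1.17.1, pandas 2.3.3, scanpy 1.11.5 (Scrublet) and matplotlib 3.10.9. Alternatives varied cell filters, denominators, pooling, scaling and fold size.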

Additional observations from a re-analysis of the deposited data

Results flagged for a closer look

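The nuclear share of ALLO over SYN lay above 1 in B cells (1.01), CD4 T cells (1.09), CD8 T cells (1.03), Foxp3 T cells (1.16) and dividing cells (1.10), and below 1 in plasma cells (0.882). The mitochondrial share lay above 1 in B cells (1.05) and below 1 in Foxp3 T cells (0.834) and dividing cells (0.975). These are listed because cell types point in opposite directions under the same contrast. With 1 library per group the difference between cell types was not tested.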

How the results depend on the processing

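With 1 library per group no direction was tested, and the fewest members were measured in Foxp3 T and plasma cells. Of 222 recomputed share ratios 28 lay on the other side of 1 than the value reported, 6 of them with a reported interval clear of 1 (called reversed below). Dividing cells, the deepest cell, the median over cells, neutrophil cells and doublet scores were alternatives chosen after seeing the data; leaving out shared barcodes or neutrophil cells moved no ratio past its interval. Values that moved follow, all ALLO over SYN, and the cause was not tested. With every deposited barcode the nuclear ratio was 1.02 in B, 1.01 in NK and the mitochondrial ratio was 1.04 in B, 0.964 in NK and the number of members 1.5-fold apart was 1 in B. Without ribosomal genes in the total the nuclear ratio was 1.03 in B, 1.05 in CD4 T and the mitochondrial ratio was 1.07 in B, 0.953 in CD4 T. As the mean over cells the nuclear ratio was 1.01 in B, 1.03 in CD4 T, 1.01 in CD8 T, 1.05 in Foxp3 T, 0.786 in plasma and the mitochondrial ratio was 1.07 in B, 1.01 in CD4 T, 0.964 in NK, 1.26 in plasma, 1.08 in dividing (reversed). Scaled by the median ratio of genes the nuclear ratio was 1.06 in B, 1.08 in CD8 T, 1.03 in NK, 1.04 in plasma (reversed), 1.13 in dividing and the mitochondrial ratio was 1.10 in B, 1.06 in CD8 T, 1.04 in NK, 1.20 in plasma, 0.996 in dividing and the number of members 1.5-fold apart was 7 in plasma, 2 in dividing. With at most 10% mitochondrial UMIs per cell the mitochondrial ratio was 1.04 in B, 0.959 in plasma, 0.936 in dividing. With at least 10% ribosomal UMIs per cell the nuclear ratio was 0.974 in plasma and the mitochondrial ratio was 1.04 in B, 1.13 in plasma, 0.956 in dividing. As the median over cells the nuclear ratio was 1.02 in CD4 T, 1.01 in CD8 T, 1.05 in Foxp3 T, 0.615 in plasma, 1.04 in dividing and the mitochondrial ratio was 1.06 in B, 1.01 in CD4 T, 1.06 in CD8 T, 1.01 in Foxp3 T (reversed), 0.965 in NK, 0.844 in dividing. At a smaller fold the number of members that far apart was 2 in B, 3 in CD4 T, 2 in CD8 T, 33 in Foxp3 T, 9 in NK, 33 in plasma, 9 in dividing. At 2-fold the number of members that far apart was 0 in CD8 T, 0 in Foxp3 T, 2 in plasma, 0 in dividing. With cells of 2000 to 6000 UMIs the nuclear ratio was 1.01 in CD4 T, 0.992 in CD8 T (reversed), 1.03 in Foxp3 T, 0.806 in plasma and the mitochondrial ratio was 1.04 in CD4 T, 1.08 in CD8 T, 0.910 in Foxp3 T, 1.10 in NK, 0.877 in plasma, 1.27 in dividing (reversed) and the number of members 1.5-fold apart was 2 in CD8 T, 2 in NK, 17 in dividing. Without cells holding a UMI of another lineage the nuclear ratio was 1.07 in CD4 T, 1.01 in CD8 T, 1.01 in NK and the mitochondrial ratio was 1.01 in CD4 T and the number of members 1.5-fold apart was 3 in NK, 2 in dividing. Without dividing cells the nuclear ratio was 1.03 in CD4 T, 0.998 in CD8 T (reversed), 1.00 in Foxp3 T, 0.809 in plasma and the mitochondrial ratio was 1.01 in CD4 T, 0.862 in Foxp3 T, 1.08 in plasma and the number of members 1.5-fold apart was 2 in Foxp3 T. With genes of at least 50 UMIs and 1 in each library the number of members 1.5-fold apart was 0 in CD8 T. Without the deepest cell of each class the nuclear ratio was 1.12 in Foxp3 T and the mitochondrial ratio was 1.02 in NK. Without the 5% of barcodes with the highest doublet scores the number of members 1.5-fold apart was 1 in NK, 2 in dividing. Without immunoglobulin and receptor genes in the total the nuclear ratio was 0.967 in plasma, 1.08 in dividing and the mitochondrial ratio was 1.11 in plasma, 0.953 in dividing. Removal of doublets at the automatic Scrublet threshold was not run, since it marked 0 of 10744 ALLO and 2 of 17459 SYN barcodes. No paired analysis was possible because the groups share only replicate number 1.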

Other observations

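Cox6a2, the heart and muscle copy of a complex IV subunit (chr7:128205435-128206387, minus strand), was found at a high level in a few single cells. The highest count in a cell was not taken for the other tissue-restricted copies. Cox6a2 had 25 UMIs in 6 ALLO cells and 113 UMIs in 14 SYN cells, with up to 8 and 33 UMIs in 1 cell. Of 10 SYN cells with at least 2 UMIs of Siglech, a gene of plasmacytoid dendritic cells, 7 had Cox6a2 and held 91 of its 113 UMIs. The 1 ALLO cell of this kind held 7 of 25. SYN cells with Cox6a2 had Bst2, another gene of these cells, at 2682 CPM, against 59.6 CPM in the rest. In ALLO 58 of the 60 Bst2 UMIs of cells with Cox6a2 were in the 1 Siglech cell, so the other ALLO cells with Cox6a2 did not show it. Over all cells Cox6a2 in ALLO stood at 0.234 (0.146 to 0.364) times SYN. Siglech and Bst2 were chosen after their values were seen.

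Kept cells in no class, 1357 in ALLO and 2193 in SYN, had nuclear shares of 1.58% and 1.61% and mitochondrial shares of 2.31% and 1.99%. Of them 78 and 36 had over 10% of UMIs on mitochondrial members.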
